A study of Rattus norvegicus with 11 samples.

Results

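Mmd and MGC108778 are neighbouring genes on rat chromosome 10, and each was represented by 1 probe among the 41012 non-control probes of the array. Both were chosen on their higher signal in heroin self-administering rats, so their difference between the groups is described here without a test. The accession that the array gives for MGC108778 is paired in the RefSeq table (assembly GRCr8) with the symbol Tmem100. The 2 probes were set beside the 17 other probes of a surrounding window of chromosome 10 (build rn3, the positions in the array files), which reach from AA955883 to BF554752 (chr10:78414973-79110567).

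RNA came from the medial prefrontal cortex of male rats, 4 months old, with 1 single-colour (Cy3) Agilent array per rat. The heroin group held 6 rats that had self-administered heroin, and the control group held 5 rats that had received saline in a yoked schedule, in which infusions are set by a partner animal. Rats of both groups went through 14 days of abstinence and then an extinction session without drug, after which the tissue was taken. Effects of earlier heroin and of behavior in the session cannot be told apart in these arrays. The tissue was a whole block of cortex, in which more RNA per cell and more cells of a type cannot be told apart.

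Mmd encodes a membrane protein with several membrane passes of the PAQR (progestin and adipoQ receptor) family, named for its rise when monocytes mature into macrophages. It is also expressed in brain, and with its relative Mmd2 it has been placed at the Golgi, where it affects Ras signalling. Tmem100 encodes a small membrane protein. It is known as a target of the BMP receptor ALK1 (Acvrl1) in developing endothelium, and in sensory neurons it modulates TRP channels.

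The probes are shown because each gene's result rests on a single stretch of sequence, and because the MGC108778 probe has a partner on the opposite strand. Capitals mark the 51 bases that the probes of MGC108778 and AI168935 share as reverse complements. The other letters are in lower case and mark nothing.
Mmd: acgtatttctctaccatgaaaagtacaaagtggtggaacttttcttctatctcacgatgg
MGC108778: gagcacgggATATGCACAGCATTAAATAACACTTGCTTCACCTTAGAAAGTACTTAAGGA
AI168935: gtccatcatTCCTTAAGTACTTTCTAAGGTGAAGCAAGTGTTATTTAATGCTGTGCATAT
TC527072: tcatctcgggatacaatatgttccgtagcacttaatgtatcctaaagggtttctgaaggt
The Mmd probe is placed at chr10:78694266-78695690 on the plus strand. Its 60 bases are spread over 1425 bases of the genome, so they are not contiguous there. The MGC108778 probe is placed at chr10:78465950-78466009 on the plus strand, 228.3 kb from that of Mmd. AI168935 (chr10:78465959-78466018) lies on the minus strand, and TC527072 (chr10:78466813-78466872) lies on the plus strand 803 bases beyond the MGC108778 probe. In the RefSeq gene order, Smim36 and a long noncoding RNA lie between Tmem100 and Mmd, and no probe of the window carries either name. No other probe of the array shared a run of 20 bases with the Mmd probe, and AI168935 was the only one that did so with the MGC108778 probe. Whether the probes fall in coding or untranslated exons was not analysed here.

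Signals are given in array medians, that is, the signal of a probe divided by the median over all non-control probes of the same array. Array medians of the raw signal lay between 42.7 and 78.3 in the heroin group and between 58 and 83.2 in the saline group, with the lowest of all arrays in heroin rat 6. By the file headers, the array of each of the 5 saline rats was scanned at the same time as that of the heroin rat of the same number, which is taken here as a shared slide, and heroin rat 1 was scanned without a saline rat. All heroin arrays had the same array position code and all saline arrays another, so position and group cannot be told apart. Of the 25555 probes tested, the median one had a log2 difference of 0.18, higher in heroin rats. That shift was 0.01 after quantile normalization, which gives every array the same distribution, so values after quantile normalization are given beside the main differences of the genes named. Nothing in the labels says more about the rats than 1 array each, so p-values measure the spread between these rats.

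The signal of MGC108778 (Tmem100) was higher in every heroin rat than in every saline rat. It was 7.81, 6.90, 8.92, 7.71, 6.02 and 6.54 array medians in heroin rats 1 to 6. In saline rats 2 to 6 it was 3.50, 3.30, 4.30, 4.82 and 3.30 array medians. The lowest heroin rat, number 5, lay above the highest saline rat, also number 5. The group means were 7.32 ± 1.04 array medians (SD, n = 6) and 3.84 ± 0.68 array medians (SD, n = 5). On the log2 scale the heroin mean was 0.93 higher (SE 0.15), a 1.91-fold difference, and after quantile normalization it was 0.72 higher, or 1.64-fold. Signals of this probe were between 12.7 and 40.1 times the lowest signal scored as well above background on the same array.

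Mmd was also higher on average in heroin rats, with a small overlap between the groups. Its signal was 2.20, 1.81, 2.36, 1.97, 2.01 and 4.02 array medians in heroin rats 1 to 6. In saline rats 2 to 6 it was 1.37, 1.19, 1.02, 1.87 and 1.31 array medians. Heroin rat 6 stood well above the other heroin rats, and saline rat 5 lay just above heroin rat 2. The group means were 2.39 ± 0.82 array medians (SD, n = 6) and 1.35 ± 0.32 array medians (SD, n = 5). The log2 difference was 0.80 (SE 0.20), or 1.74-fold, and it was 0.71 after quantile normalization. Without heroin rat 6 it was 0.64. Mmd signals were between 3.79 and 12.9 times the lowest signal scored as well above background on the same array. With a background correction from the local background of each spot (normexp) the Mmd difference was 0.45, under 1.4-fold, while that of MGC108778 was 0.81.

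**Figure D1:**
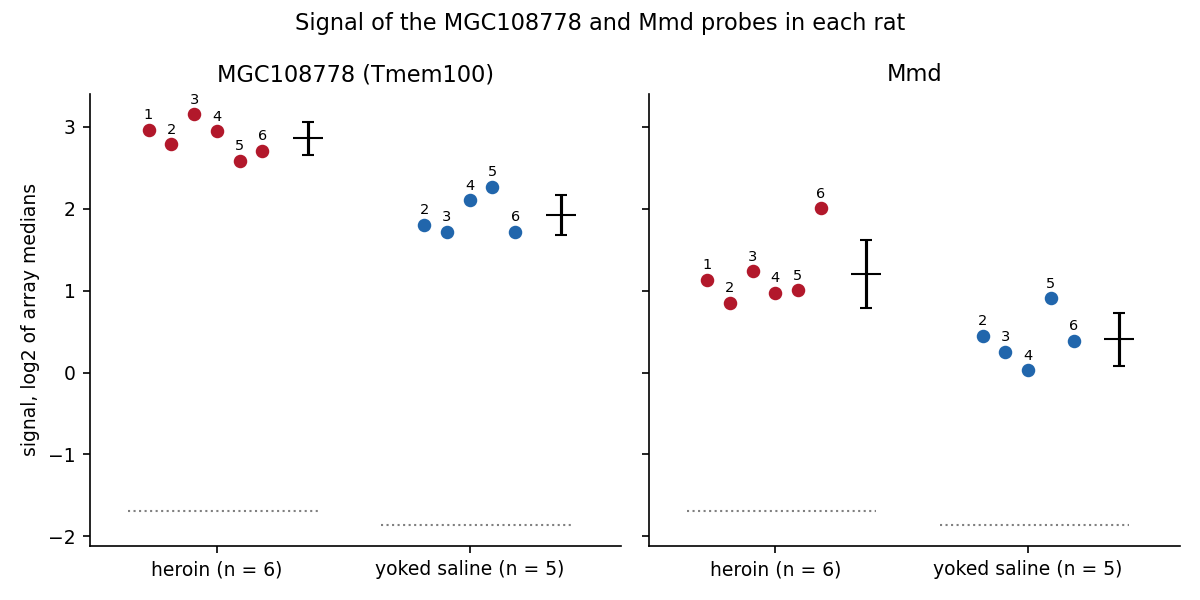
Signal of the MGC108778 (Tmem100) and Mmd probes in each rat, as log2 of array medians. Points are rats with their number, bars are the mean ± SD of the log2 values, and dotted lines are the highest detection limit among the arrays of a group. The MGC108778 values of the groups do not overlap, and for Mmd saline rat 5 reaches into the heroin range.

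By the thresholds of the study's methods, 1.4-fold or more at an unadjusted p under 0.02, 2.72% of the 25555 probes differed between the groups, with 1.79% higher and 0.923% lower in heroin rats. Both genes were past these thresholds, which is how they came to be described, and nothing is read from it. MGC108778 had the 16th largest rise of the 25555 probes and Mmd the 41st, and after quantile normalization they had the 60th and the 66th. Groups did not overlap for 1.8% of the probes tested, MGC108778 among them. At an adjusted p under 0.05 (limma with Benjamini-Hochberg adjustment) the number of probes was 0, with 4729 at an unadjusted p under 0.05 and a smallest adjusted p = 0.263. The direction of the calls depended on the scaling, since 458 of 694 probes past the thresholds were higher in heroin rats with the main scaling, 33 of 779 with scaling to the 75th percentile, and 209 of 458 after quantile normalization. The differences of Mmd and MGC108778 were positive under each of these, at 0.58 and 0.72 with the 75th percentile.

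Between the 2 rats of a slide, both genes were higher in the heroin rat on each of the 5 shared slides. For MGC108778 the log2 difference was 0.98, 1.43, 0.84, 0.32 and 0.99 on slides 2 to 6. For Mmd it was 0.40, 0.98, 0.95, 0.10 and 1.62. Slide 5 had the smallest difference for both genes, and it was also the slide on which the median of all tested probes was lower in the heroin rat, at -0.11 against 0.12 to 0.28 on the others. After quantile normalization the slide 5 differences were 0.52 for MGC108778 and 0.23 for Mmd.

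**Figure D2:**
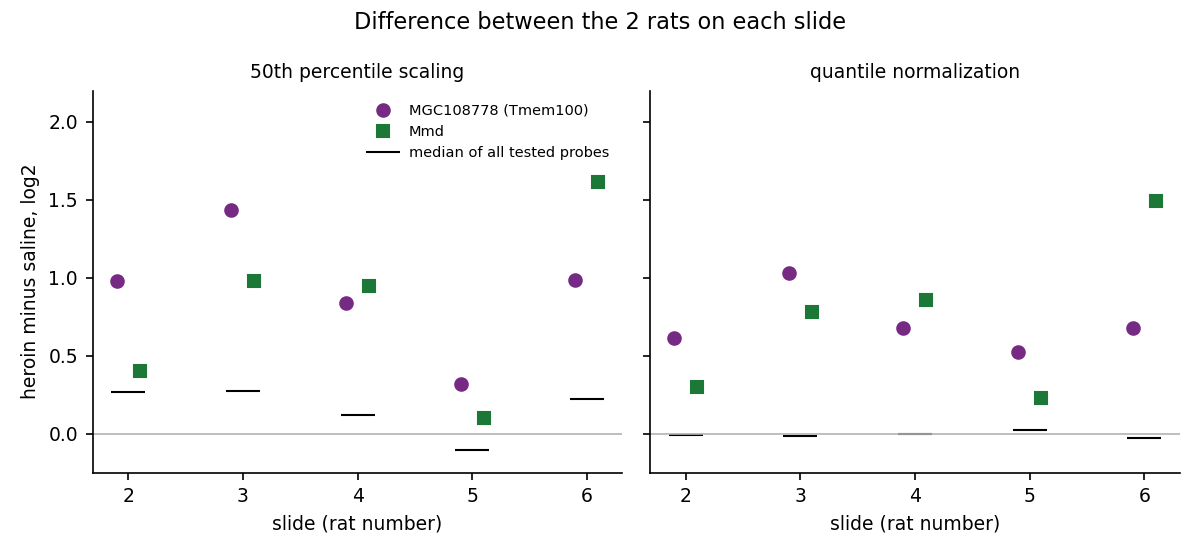
Log2 difference between the heroin and the saline rat of each slide for MGC108778 (circles) and Mmd (squares), with the median over all tested probes as a black dash. The left panel shows the 50th percentile scaling and the right panel quantile normalization. Every point of both genes lies above 0, and slide 5 has the smallest difference of each gene in either panel.

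Within the groups, the signals of the 2 genes had little relation across rats. After each group's mean was removed, the log2 signals of the 2 genes had a Pearson r of 0.0953 and a Spearman rho of 0.0545 over the 11 rats. Without the 2 rats farthest from the median r was -0.0282, and after quantile normalization of all 11 rats it was -0.217. The groups taken singly differed in sign, with r = -0.139 over the 6 heroin rats and 0.408 over the 5 saline rats. After quantile normalization these were -0.519 and 0.28. Heroin rat 6, the highest for Mmd, was the second lowest heroin rat for MGC108778, and heroin rat 3 was the highest for MGC108778. Saline rat 5 was the highest saline rat for both.

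At the Tmem100 locus, 1 of the 3 other probes was detected on all arrays, and its values did not follow those of MGC108778. That probe, TC527072, of an unnamed transcript on the same strand, had signals of 11.1, 9.33, 11.2, 10.5, 10.5 and 29.0 array medians in heroin rats 1 to 6. In saline rats 2 to 6 they were 11.1, 14.8, 17.7, 18.6 and 12.6 array medians. Apart from heroin rat 6, the heroin values lay below the saline values, except that heroin rats 1 and 3 were just above saline rat 2. The log2 difference was -0.24 (SE 0.26), with an adjusted p = 0.555 by limma. After quantile normalization it was -0.49, larger than 1.4-fold, and not past the thresholds. On slides 2 to 5 the heroin rat was lower, by a log2 difference of -0.24, -0.39, -0.75 and -0.83, and on slide 6 it was higher by 1.20. Without heroin rat 6 it was -0.48, just under 1.4-fold, with an unadjusted p = 0.00642 by limma's moderated test. Whether TC527072 and MGC108778 belong to 1 transcript was not tested.

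The antisense partner AI168935 was not well above background on any of the 11 arrays, with signals between 0.0626 and 0.201 array medians. AI058357, on the minus strand near TC527072, was detected on 1 array, that of saline rat 3. The higher MGC108778 signal was therefore measured on the plus strand probe, with no detectable signal from its reverse complement at these detection limits, which lay between 0.211 and 0.31 array medians.

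**Figure D3:**
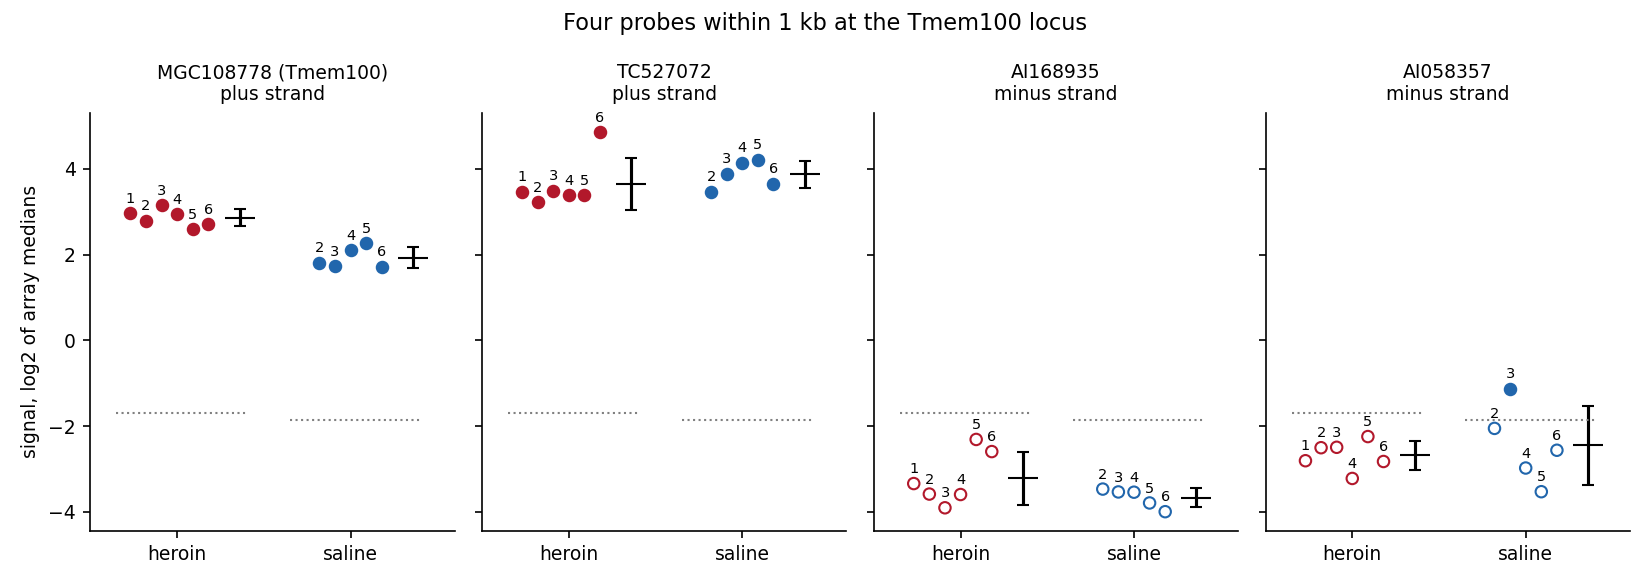
Signal in each rat of 4 probes placed within 1 kb at the Tmem100 locus, as log2 of array medians. Filled points were well above background, open points were not, bars are the mean ± SD, and dotted lines are the highest detection limit among the arrays of a group. MGC108778 separates the groups, TC527072 has heroin rat 6 far above the other heroin rats, and both minus strand probes lie at or below the limit, apart from saline rat 3 for AI058357.

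Of the 17 other probes of the window, 12 were detected on all arrays and tested, and 5 were not. None of the 12 was past the thresholds, against 2.72% of all probes tested. Their adjusted p-values by limma lay between 0.263 and 0.825. Their median log2 difference was 0.07, with 7 probes higher and 5 lower in heroin rats, while the median over all tested probes was 0.18. After quantile normalization the medians were -0.02 and 0.01. On the whole of chromosome 10, 56 of 1945 tested probes (2.88%) were past the thresholds, with a median of 0.17.

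None of the named neighbours of Mmd and Tmem100 was past the thresholds. Pctp, a transfer protein for phosphatidylcholine on the far side of Tmem100, had a log2 difference of 0.22 (SE 0.17, limma adjusted p = 0.423), and 0.24 after quantile normalization. Hlf, a transcription factor of the circadian PAR bZIP group and the nearest named gene beyond Mmd, was at -0.14 (SE 0.16, limma adjusted p = 0.554), and at -0.24 after quantile normalization. Stxbp4, a syntaxin binding protein, was at 0.08 (SE 0.16, limma adjusted p = 0.752), and at 0.16 after quantile normalization. LOC690300, described on the array as similar to the cytochrome oxidase assembly factor COX11, was at 0.25 (SE 0.13, limma adjusted p = 0.289), and at 0.06 after quantile normalization. RGD1562626, described as similar to an adaptor of Src kinases, was at -0.08 (SE 0.13, limma adjusted p = 0.712), and at -0.15 after quantile normalization. The size of these 5 differences is not weighed against Mmd and MGC108778, which were chosen on their higher signal in heroin rats.

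Among the unnamed transcripts, BF567145 and CR469283 were the 2 with an unadjusted p under 0.05. CR469283, 67.9 kb beyond the Mmd probe, ranged from 34.8 to 56.6 array medians in heroin rats and from 26.7 to 34.8 in saline rats. The groups just failed to overlap, as for 1.8% of all tested probes. After quantile normalization they overlapped, at log2 values of 4.98 to 5.63 in heroin and 4.92 to 5.25 in saline rats. The log2 difference of CR469283 was 0.40 (SE 0.15), and 0.13 after quantile normalization. Its probe lay on the minus strand, as did those of CF107721 (66.4 kb) and Hlf (70.1 kb), the last with a difference of -0.14. Whether these probes belong to 1 transcript was not tested. BF567145 was at 0.43 (SE 0.16), and 0.39 after quantile normalization, with heroin rat 6 inside the saline range. Its probe lay on the plus strand, 366.3 kb beyond the Mmd probe, near that of LOC690300 at 364.6 kb on the same strand. XM_346896, a predicted gene placed -4.92 kb from the MGC108778 probe, was lower in heroin rats at -0.44 (SE 0.21, limma adjusted p = 0.271), and at -0.46 after quantile normalization. Within the groups it ran against MGC108778 over the 11 rats, with r = -0.872, and -0.675 after quantile normalization. Other window probes also had large values. MGC108778 had r = 0.772 with LOC690300 and 0.722 with CF107721, and 0.259 and -0.172 after quantile normalization. Mmd had r = 0.761 with TC527072, -0.782 with CB545242 and -0.782 with RGD1562626. After quantile normalization these were 0.755, -0.720 and -0.795. Heroin rat 6 was at the extreme of its group for all of these Mmd partners. CF107721 was at 0.24, AI111674 at -0.07 and CB545242 at 0.06, and after quantile normalization they were at -0.01, -0.03 and -0.11, so CF107721 and CB545242 changed sign.

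**Figure D4:**
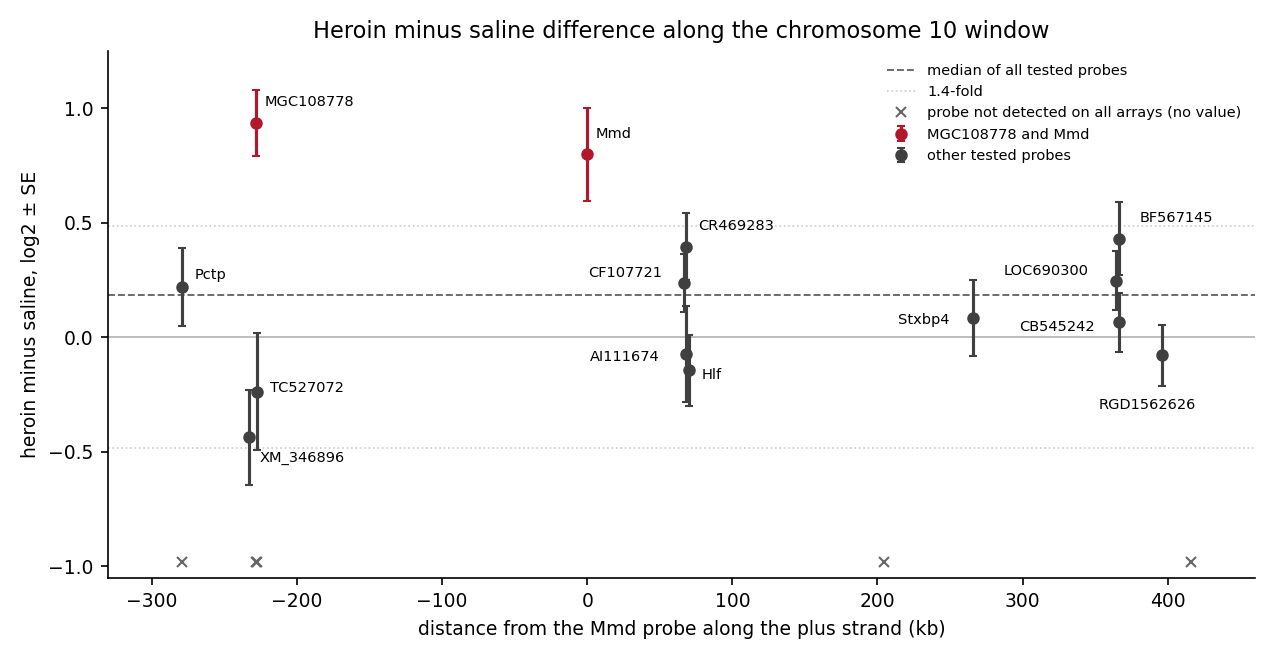
Heroin minus saline log2 difference ± SE (limma) of the probes of the chromosome 10 window against their distance from the Mmd probe in kb. MGC108778 and Mmd (red) were chosen on this difference. The 12 other tested probes (grey) all lie within the 1.4-fold lines, and crosses mark the 5 probes not detected on all arrays.

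Mmd belongs to the PAQR family, whose other 10 genes were all tested, with 12 probes. The 12 probes had 1 past the thresholds, higher in heroin rats, against 1.79% of all tested probes in that direction. It was the dimmer of the 2 probes of Adipor2, an adiponectin receptor, with a log2 difference of 0.54 (SE 0.18, limma adjusted p = 0.263), and 0.64 after quantile normalization. The brighter Adipor2 probe was at 0.13 (SE 0.20), and -0.12 after quantile normalization, so the probes of this gene disagreed.

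Mmd2, the closest relative of Mmd, ranged from 5.39 to 7.63 array medians in heroin rats and from 3.82 to 5.27 in saline rats. The groups did not overlap for Mmd2, as for 1.8% of all tested probes. The log2 difference of Mmd2 was 0.47 (SE 0.14, limma adjusted p = 0.263), just under 1.4-fold, and it was 0.25 after quantile normalization. Mmd2 passed both thresholds when heroin rat 2, heroin rat 5, saline rat 4 or saline rat 5 was left out. Paqr3, a Golgi member of the family, was at 0.29 (SE 0.13), and Adipor1, the other adiponectin receptor, was at 0.26 (SE 0.17), and after quantile normalization they were at 0.17 and 0.02. The median over the 10 genes was 0.16, and 0.04 after quantile normalization, near the medians of all tested probes.

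The remaining members of the family were not past the thresholds. Paqr7 was at 0.19, Paqr5 at 0.13, Paqr6 at 0.12, Paqr9 at 0.08 and Paqr8 at -0.14 on the log2 scale. After quantile normalization Paqr7 was at 0.04, Paqr5 at -0.02, Paqr6 at 0.15, Paqr9 at 0.20 and Paqr8 at 0.03, so that Paqr5 and Paqr8 changed sign. Paqr4 was at 0.24 and 0.21 with its 2 probes, and at -0.02 and 0.02 after quantile normalization.

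**Figure D5:**
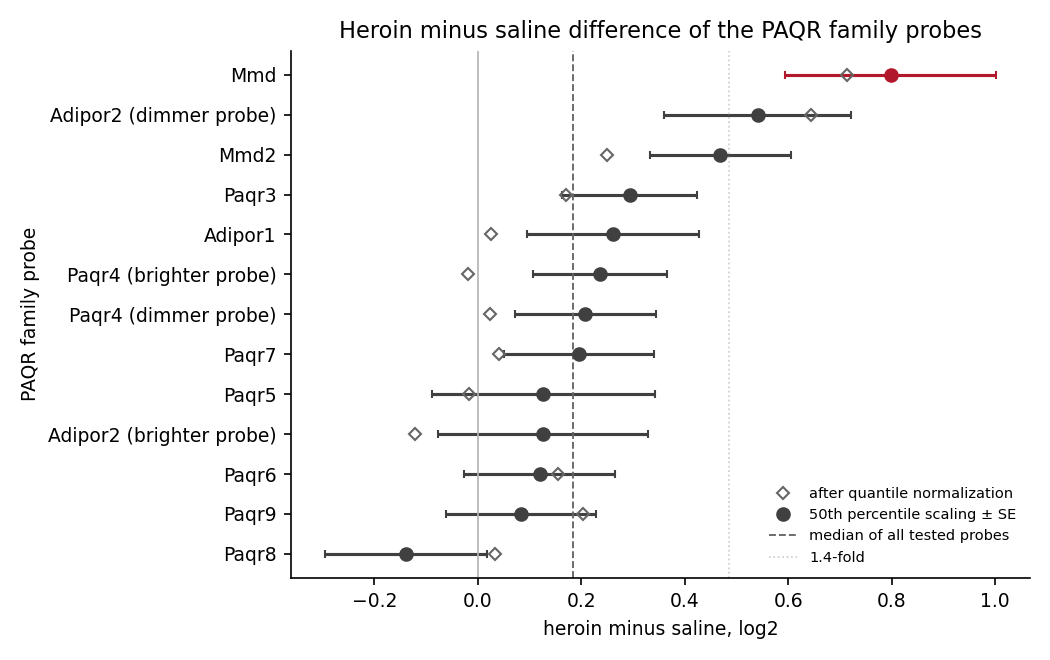
Heroin minus saline log2 difference of the tested PAQR family probes, with the SE from limma (filled circles) and the value after quantile normalization (open diamonds). Mmd is in red and was chosen on this difference. The dimmer Adipor2 probe lies beyond the 1.4-fold line, and Mmd2 lies just short of it.

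Because Tmem100 is known from BMP signalling, 16 genes of that pathway with 24 tested probes were read from the same fit. Of these, 1 probe was past the thresholds, higher in heroin rats, against 1.79% of all tested probes in that direction. It was a probe of the BMP antagonist Nog (log2 difference 0.51, SE 0.15, limma adjusted p = 0.263). It was not past them after quantile normalization (0.30), with the 75th percentile, normexp, GC removal or the methods' test, or without heroin rat 3, heroin rat 4, saline rat 3 or saline rat 6. The other Nog probe was at 0.31 (SE 0.17), and 0.15 after quantile normalization. The receptor Acvrl1 was at 0.16 (SE 0.15), its coreceptor Eng at 0.24 (SE 0.17), and the target genes Id1 and Id3 were at 0.34 (SE 0.32) and 0.24 (SE 0.18). After quantile normalization Acvrl1 was at -0.08, Eng at 0.14, Id1 at 0.08 and Id3 at -0.02. Smad4 was at 0.47 (SE 0.17), just under 1.4-fold, and 0.44 after quantile normalization. It passed both thresholds with the slide as a block, and without heroin rat 1, heroin rat 5, saline rat 4 or saline rat 5. Smad7 was at 0.36 (SE 0.16), and Bmpr1a at 0.38 (SE 0.16) and -0.02 (SE 0.17) with its 2 probes. After quantile normalization Smad7 was at 0.12 and Bmpr1a at 0.17 and 0.14. The median over the 16 genes was 0.24, and 0.09 after quantile normalization, against 0.18 and 0.01 over all tested probes. Before quantile normalization 15 genes were higher in heroin rats, with Bmp4 lower at -0.15, the brighter Bmpr2 probe at 0.04 and Bmp7 at 0.09. After it Bmp4 was at -0.12, Bmpr2 at -0.14 and Bmp7 at -0.02, so these were lower, as were Acvrl1 and Id3.

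Markers of the cell types in which these genes are best known did not separate the groups. The endothelial list had 9 of its 10 genes tested and 0 past the thresholds, with a median of 0.06 and Cldn5, a tight junction protein, at 0.10 (SE 0.20). After quantile normalization both were at -0.16. The mean log2 level of the list ranged from 2.19 to 2.75 in heroin rats and from 2.21 to 2.51 in saline rats. Of the microglia and macrophage list, 11 of 12 genes were tested, with a median of 0.16, and the mean log2 level ranged from 2.77 to 3.39 in heroin rats and from 2.86 to 3.30 in saline rats. C1qb, the brightest of the list, was at 0.16 (SE 0.17). After quantile normalization the median was -0.08 and C1qb was at -0.11. One of 2 tested probes of Ptprc, a leukocyte phosphatase, was past the thresholds and lower in heroin rats (-0.50, SE 0.16), and the other was at -0.04. After quantile normalization they were at -0.43 and 0.04, and neither was past the thresholds. Defining genes Pecam1 and Itgam were not detected on all arrays.

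Of the markers of cortical excitatory neurons, Nrgn was at 0.13 (SE 0.13), Slc17a7 at 0.31 (SE 0.20) and Camk2a at 0.49 (SE 0.24) and 0.28 (SE 0.14) with its 2 probes, none of them past the thresholds. After quantile normalization Nrgn was at -0.10, Slc17a7 at 0.15 and Camk2a at 0.24 and 0.03. The striatal list had a median of -0.13, and -0.31 after quantile normalization, below the 0.18 and 0.01 of all tested probes, with 0 probes past the thresholds. Its Drd1 was at -0.37 (SE 0.20), and Adora2a at -0.21 (SE 0.25) and -0.15 (SE 0.31) with its 2 probes. Rgs9 was at -0.06 (SE 0.31) and Ppp1r1b at 0.01 (SE 0.14), while Drd2 was not detected on all arrays. After quantile normalization Drd1 was at -0.35, Adora2a at -0.34 and -0.02, Rgs9 at -0.27 and Ppp1r1b at -0.13. The saline groups reached 5.92 array medians for the brighter Adora2a probe and 13.3 for Rgs9. The highest heroin values were 3.00 and 5.48. The mean log2 level of the striatal list ranged from 0.66 to 1.17 in heroin rats and from 0.78 to 1.76 in saline rats. Sst, an interneuron peptide, was at 0.21 (SE 0.17), and the astrocyte transporter Slc1a3 was at 0.24 (SE 0.13), and after quantile normalization they were at -0.03 and -0.02. The oligodendrocyte list had 0 genes past the thresholds. Vip, an interneuron peptide, was past the thresholds at 0.49 (SE 0.13, limma adjusted p = 0.263), and it was at 0.23, and no longer past them, after quantile normalization. In all, 2 of 60 tested marker probes were past the thresholds, against 2.72% of all tested probes.

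The mean log2 levels of several lists moved with the 2 genes within the groups over the 11 rats. MGC108778 had r = 0.702 with the interneuron list, 0.680 with astrocytes, 0.608 with microglia and macrophages and 0.70 with the BMP genes. After quantile normalization these were 0.180, 0.324, 0.122 and 0.440. With the PAQR list, to which it does not belong, MGC108778 had r = 0.679, and 0.305 after quantile normalization. Mmd had r = -0.610 with excitatory neurons, 0.510 with endothelium and 0.515 with the striatal list, and after quantile normalization -0.556, 0.371 and 0.491. With the other PAQR genes and with astrocytes Mmd had r = -0.229 and -0.214, and -0.498 and -0.525 after quantile normalization. The part of these cell types in the signals of Mmd and MGC108778 was not tested.

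Within the groups, the probes most like each gene over the 11 rats were different ones. For MGC108778, among 7422 candidate probes with a RefSeq mRNA accession, they were those of Cyp3a62 (r = 0.961), Cr16 (0.952), Zdhhc4 (0.951), Polr2g (0.944) and LOC497941 (0.943). Their own log2 differences between the groups lay between -0.01 and 0.24, and between -0.12 and -0.01 after quantile normalization, and none was past the thresholds. After quantile normalization r for Polr2g was 0.527 and that for Cr16 was 0.883.

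For Mmd they were those of S100a10 (r = 0.941), Hrc (0.935), Gpha2 (0.932), Acp5 (0.914) and Tpm3 (0.910). Heroin rat 6 was the highest heroin rat for all 5, as it was for Mmd. Without the 2 rats farthest from the median of Mmd, r fell to between 0.454 (Hrc) and 0.690 (Gpha2). All probes of a rat share 1 array and its array-wide shifts, so these values are descriptions of these 11 arrays.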

How the data were processed

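The authors deposited, for each spot, a signal intensity, per the file headers made with Feature Extraction 9.5.1.1, corrected for background and spatial trend and not scaled between arrays. The authors also deposited a ratio per probe and rat, made by raising low values to 5 and then scaling arrays to the 50th percentile and genes to their median, and this table served as an alternative. Here the deposited intensities were treated in the same order, without the division by gene. Control spots and the 99 to 231 marked spots per array were left out, and lower values were raised to 5. The 50th percentile over non-control probes was divided out of every array, log2 was taken, and the spots of a probe were averaged last. A probe was detected where at least 0.5 of its spots were well above background. Tests covered probes detected on all 11 arrays with a usable value on at least 2 arrays of each group, a condition added after the data were seen.

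Groups were taken from the sample records and compared by two-sided limma tests (limma 3.58.1 with lmFit and eBayes, in R 4.3.3), and p-values were adjusted by Benjamini-Hochberg over the 25555 probes, after the fits had been tested on simulated data. The number of arrays limits the precision. The methods give 12 arrays, and 11 were analysed here. The members and all lists were chosen with earlier results of these data known. Genes described were the members, each window and PAQR gene tested, the 5 probes most like each member with a value on every array (this condition was added after the data were seen), and of each marker list the brightest gene and any past the thresholds. BMP genes were added because the reference names MGC108778 as Tmem100. Other genes named (those of the BMP list beside Nog, and Pecam1, Itgam, Slc17a7, Camk2a, Drd1, Adora2a, Ppp1r1b and Drd2) were chosen after their values were seen. Some marker genes of the lists are not reported here by name. Alternatives were quantile normalization, the 75th percentile as scale, normexp (offset 50), the authors' ratios, marked spots kept, 2 other detection filters, the methods' test with unequal variances, the replicate number (the same as the slide) as a block, leaving out each rat, and, added after the data were seen, removal of deviations by probe GC content in bins.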

Additional observations from a re-analysis of the deposited data

Results flagged for a closer look

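In 72 groups of 5 or 6 rats examined for a rat far from the others (by Dixon's ratio of gap to range, which flags about 1 in 20 groups by chance), 6 stood out. Heroin rat 6 was the highest of its group for Mmd, at 4.02 array medians, for TC527072 at the Tmem100 locus, at 29.0, and for 3 of the probes most like Mmd, namely S100a10 at 102, Hrc at 3.46 and Acp5 at 9.43. The last 3 were selected for their likeness to Mmd, which includes that rat. Heroin rat 3 was the highest for the dimmer Adipor2 probe, at 1.15 array medians. MGC108778 had no such rat in either group.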

How the results depend on the processing

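The differences of Mmd and MGC108778 stayed positive under each of 20 alternatives, and only that of Mmd with normexp, at 0.45, fell under 1.4-fold. The genes were chosen on these differences, so nothing is read from their sign. The alternatives are also not independent. Keeping marked spots and the 2 other detection filters left both values unchanged. The replicate block gave the same values as leaving out heroin rat 1. Leaving out a rat gave 0.64 (without heroin rat 6) to 0.92 (without saline rat 5) for Mmd and 0.88 (without heroin rat 3) to 1.02 (without saline rat 5) for MGC108778. With probe GC deviations removed, added after the data were seen, they were 0.59 and 0.76. Deviations of rats with the same number correlated between -0.237 and 0.384. So few values cannot tell whether the numbers pair the rats, and the main fit did not pair them. With the replicate block, which is also the slide, the differences were 0.81 for Mmd and 0.91 for MGC108778, the window had 0 probes past the thresholds, the PAQR family 1, the marker lists 2 and all probes 806. The window count became 1 without a detection filter (AA955883), without heroin rat 5 (XM_346896) and without saline rat 5 (BF567145), for a range of 0 to 1. The PAQR count of 1 became 0 with the 75th percentile, normexp and GC removal, and ranged from 0 (without heroin rat 3, saline rat 2 or saline rat 3) to 2 (without heroin rat 2, heroin rat 5 or saline rat 5). The marker count of 2 became 1 with the 75th percentile, the authors' ratios and GC removal, 0 with quantile normalization and normexp, and ranged from 0 (without heroin rat 3 or saline rat 2) to 3 (without heroin rat 5), with 1 without heroin rat 2, heroin rat 6, saline rat 3, saline rat 4 or saline rat 6. Of all probes, 694 became 458 with quantile normalization, 126 with normexp, 309 with the methods' test, 1066 with detection in 1 group and 1560 with no filter, and ranged from 342 (without saline rat 2) to 2352 (without saline rat 5), with 394 without saline rat 3. Of the 5 probes most like MGC108778, 1 was among the top 5 after quantile normalization and 0 without centring on the group means, and for Mmd these were 3 and 1. The cause of these changes was not tested. Averaging over the probes of a gene could not be run, since each gene has 1 probe. Signal over background limits the Mmd values, which lay down to 3.79 times the detection limit.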
